A study of Homo sapiens with 12 samples.

Results

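The genes described here are the ligands of NKG2D, the activating receptor by which natural killer (NK) cells recognise stressed and transformed cells, together with IL15, the cytokine that sustains NK cells, and its receptor chain IL15RA. They are ULBP1, ULBP2, ULBP3, RAET1E, RAET1G, RAET1L, MICA, MICB, IL15 and IL15RA, 10 of the 58191 rows of the expression table, found by gene symbol. The set was selected on FPKM values of the K562 comparison, in which some of its members are among the genes with the largest differences, so its values in K562 are given as a description without a test. Of the members that differ in K562 ULBP1 has the smallest log2 difference, 2.76, and IL15RA, at 0.15, has the largest among the tested members that do not.

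RNA sequencing of total RNA was carried out on 12 libraries from human leukaemia lines. The groups were K562 with EVI1 overexpression, K562 control (given as wild type), EVI1 overexpression labelled MOLM14, and the control of that label (also given as wild type), with 3 libraries each. The EVI1 protein, a DNA-binding regulator with zinc fingers, comes from the MECOM locus, and no drug, time or dose is given in the labels of any library. K562 is a chronic myeloid leukaemia line with erythroid features, long used as a target of NK cells, whereas MOLM14 comes from an acute myeloid leukaemia of monocytic type. The labels name neither the vector nor whether a line is 1 clone, and they do not say that replicates were separate cultures, so p-values measure the spread between these libraries, which may be technical. The values are FPKM, fragments scaled by transcript length and library size, which allows levels of different genes to be set side by side.

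The libraries labelled MOLM14 went against their label in part. FLT3 and HOXA9, which define that line, were listed at 0 in all of them except 0.00915 FPKM of FLT3 in EVI1 replicate 3 and 0.0245 FPKM of HOXA9 in EVI1 replicate 1. The erythroid factor GATA1 reached 141, 149.6 and 145 FPKM in EVI1 libraries and 107, 123 and 109 FPKM in control libraries of this label. Of 7 markers of the line with usable names, 4 lay over 1 FPKM in both groups, namely SPI1, PTPRC, CD33 and LYZ. The list summed to 136 to 154 FPKM in EVI1 and 193 to 219 FPKM in control libraries. These 4 markers also reached 1 FPKM in at least 3 K562 libraries, so they do not set the lines apart here. Of 12 markers of K562, 4 had usable names, and all 4 averaged over 1 FPKM in both groups labelled MOLM14. Across 5510 genes the EVI1 libraries of this label correlated at 0.982 to 0.987 with the K562 control libraries and at 0.982 to 0.983 with their own control, and they share one organism and assay. Columns of this label match gene names only in the first 5510 rows, where ULBP1 is the only member, so 9 members have values in K562 alone. MECOM rose under both labels: it had 26.0, 23.9 and 22.1 FPKM in K562 EVI1 against 14.6, 11.2 and 10.9 FPKM in K562 control (limma adjusted p = 3.4e-04), and 17.8, 18.0 and 16.9 FPKM in EVI1 against 9.66, 9.02 and 8.55 FPKM in control libraries labelled MOLM14 (limma adjusted p = 6.5e-05).

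NKG2D sits on NK cells and some T cells and signals through the adaptor HCST. Its ligands are distant relatives of MHC class I that carry no peptide, are low on most healthy cells and are induced by cellular stress, DNA damage and transformation. MICA, MICB, RAET1E and RAET1G span the membrane, whereas ULBP1, ULBP2, ULBP3 and RAET1L are held by a glycosylphosphatidylinositol (GPI) anchor, and ligands of either kind can be shed from the cell by proteases. IL15 is made mainly by myeloid and stromal cells and is presented to NK cells by IL15RA on the same producing cell.

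The 6 ULBP and RAET1 genes lie side by side on chromosome 6 (GRCh38, GENCODE 29), in the order RAET1E, RAET1G, ULBP2, ULBP1, RAET1L and ULBP3. ULBP2 spans chr6:149942000-149949235 and ULBP1 spans chr6:149964007-149973710, both on the plus strand, and ULBP3 spans chr6:150063150-150069095 on the minus strand. MICA and MICB lie in the MHC region of the same chromosome, IL15 on chromosome 4 and IL15RA on chromosome 10. The promoters of ULBP1 and ULBP2, which were high with EVI1 in K562, are shown with that of ULBP3, a cluster member near 0, as 300 bases from 250 before to 50 after the RefSeq start (GRCh38.p14), 5′ to 3′ on the gene's strand. Capitals mark TGACG or its reverse complement CGTCA, the core of the cAMP response element bound by CREB and ATF factors.
ULBP1, chr6:149963693-149963992, plus strand: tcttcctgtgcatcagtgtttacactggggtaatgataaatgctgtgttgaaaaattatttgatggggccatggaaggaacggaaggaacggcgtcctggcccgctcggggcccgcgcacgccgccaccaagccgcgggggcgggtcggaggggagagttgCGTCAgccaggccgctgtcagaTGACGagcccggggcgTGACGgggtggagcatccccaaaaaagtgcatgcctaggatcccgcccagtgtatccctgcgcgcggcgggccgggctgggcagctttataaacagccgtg
ULBP2, chr6:149941764-149942063, plus strand: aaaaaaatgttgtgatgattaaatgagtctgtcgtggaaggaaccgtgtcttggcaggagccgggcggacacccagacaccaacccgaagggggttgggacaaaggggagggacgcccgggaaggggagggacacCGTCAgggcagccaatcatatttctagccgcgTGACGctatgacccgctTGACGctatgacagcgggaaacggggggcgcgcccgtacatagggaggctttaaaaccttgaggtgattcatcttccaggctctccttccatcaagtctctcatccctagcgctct
ULBP3, chr6:150069072-150069371, minus strand: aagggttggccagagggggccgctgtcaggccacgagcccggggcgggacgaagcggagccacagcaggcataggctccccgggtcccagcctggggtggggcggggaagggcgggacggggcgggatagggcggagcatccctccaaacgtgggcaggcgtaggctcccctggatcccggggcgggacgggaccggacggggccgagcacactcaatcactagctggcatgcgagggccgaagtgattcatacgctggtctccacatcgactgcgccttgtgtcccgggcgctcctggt

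ULBP1 and ULBP2 each held 3 copies of this core in these windows, at -89, -67 and -51 from the RefSeq start in ULBP1 and at -115, -83 and -66 in ULBP2, none overlapping another. No copy lay in the RefSeq windows of ULBP3, RAET1E, RAET1G, RAET1L, MICA, MICB or IL15RA. IL15, which was also high with EVI1 in K562, has no window in this set, so its promoter was not searched. Of 35116 RefSeq promoter windows of the same length, 24.6% held the core on either strand and 1.40% held at least 3 copies. Of the 13 motifs searched only this core was capitalised, and its shares are a description without a test. A CCAAT box, CCAAT, lay in windows of ULBP2, MICA, MICB, RAET1E, RAET1G and IL15RA and in 34.6% of all windows. A C/EBP-ATF element, TGATGNAA, lay in ULBP2 alone among the members and in 3.62% of windows. An AP-1 site, TGANTCA, lay in ULBP2 and ULBP3, at -2 and -6, in windows of RAET1E, RAET1L and IL15RA, and in 7.71% of all windows. ULBP3 held 6 GC boxes, GGGCGG, against 2 in ULBP1 and 1 in ULBP2, and 45.0% of windows held at least 1 and 15.8% at least 3. MICA and MICB each held the heat shock element core GAANNTTC, found in 6.77% of windows. The EVI1 site GACAAGATA lay in no member window and in 0.0968% of all windows. The 13 motifs were searched on both strands, and a match describes letters in the window, not a bound site.

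In K562, ULBP1, ULBP2 and IL15 were near 0 in control libraries and high in every EVI1 library, while MICA, MICB and IL15RA were high in both groups and ULBP3, RAET1E, RAET1G and RAET1L were near 0 in both. ULBP1 had 8.08, 7.88 and 6.78 FPKM in EVI1 libraries and 0.280, 0.235 and 0.277 FPKM in control libraries. The groups did not overlap, and their means of 7.58 ± 0.70 and 0.264 ± 0.025 FPKM (SD, n = 3 each) stand 28.7-fold apart. In these bulk samples, more cells that express a gene and more RNA per cell cannot be told apart. ULBP2 had 27.2, 31.7 and 23.5 FPKM in EVI1 libraries and 0.457, 0.384 and 0.385 FPKM in control libraries. All EVI1 libraries lay far above all control libraries, with means of 27.5 ± 4.09 and 0.409 ± 0.0422 FPKM (SD, n = 3 each), 67.2-fold apart. Estimated fragments for ULBP2, a gene of 1 transcript, were 2059 to 2498 in EVI1 and 19.5 to 31.1 in control libraries, so the control level rests on few fragments. For ULBP1 they were 1409 to 1954 in EVI1 and 31.8 to 48.7 in control libraries.

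ULBP3, the GPI-anchored ligand at the far end of the cluster, had 0.0333 FPKM in EVI1 replicate 1 and was listed at 0 in the other EVI1 libraries, against 0.0339, 0.0883 and 0.0333 FPKM in control libraries. RAET1E had 0.0217, 0.0348 and 0.0515 FPKM in EVI1 libraries, and among control libraries 0.0629 FPKM in replicate 1 and listed values of 0 otherwise. Both genes overlap between groups. RAET1G, between RAET1E and ULBP2, had 0.167, 0.208 and 0.140 FPKM in EVI1 libraries and was listed at 0 in every control library. RAET1L had 0.0223 and 0.115 FPKM in EVI1 replicates 1 and 3 and was listed at 0 in EVI1 replicate 2 and in every control library. All 4 stayed under 0.21 FPKM and failed the filter of at least 1 FPKM in at least 3 libraries, so none entered the fit.

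Reads of near-identical copies can be split between these genes. Of the 50-base stretches of ULBP2 transcripts, 32.2% also occur in other genes, 29.4% in RAET1L, and of those of RAET1L 30.9% occur in ULBP2. RAET1G shares 14.3% of its stretches with ULBP2, and its low values with EVI1 are uncertain for that reason. ULBP1 shares 6.85% of its stretches with the pseudogene RAET1K, which had 0.939, 0.537 and 0.770 FPKM in EVI1 libraries and 0.108, 0.164 and 0.140 FPKM in control libraries. RAET1E and RAET1G overlap the antisense gene RAET1E-AS1, at 0.574 ± 0.122 FPKM in EVI1 and 1.13 ± 0.251 FPKM in control libraries (SD, n = 3 each), and the sources used here do not say whether strand was counted. IL15 and IL15RA share no such stretch with another gene.

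MICA and MICB, the membrane-spanning ligands of the MHC region, overlapped between groups. MICA had 16.5, 18.3 and 18.2 FPKM in EVI1 libraries and 15.1, 18.2 and 17.5 FPKM in control libraries. MICB had 22.0, 22.5 and 20.5 FPKM in EVI1 libraries and 20.8, 18.1 and 20.4 FPKM in control libraries. Their differences on the log2(FPKM + 1) scale were 0.06 (SE 0.09) for MICA and 0.13 (SE 0.08) for MICB. The FPKM of all 8 ligands together came to 74.1, 80.6 and 69.3 in EVI1 libraries and to 36.7, 37.0 and 38.6 in control libraries. ULBP1 and ULBP2 made up 43.7% to 49.1% of that sum in EVI1 libraries and 1.67% to 2.01% in control libraries.

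IL15 had 34.7, 27.7 and 30.6 FPKM in EVI1 libraries and 0.228, 0.342 and 0.330 FPKM in control libraries. The groups did not overlap, and the means of 31.0 ± 3.54 and 0.300 ± 0.0625 FPKM (SD, n = 3 each) stand 103-fold apart, more than for any other member listed above 0 in both groups. IL15RA, which presents IL15 on the surface of the producing cell, had 7.21, 6.66 and 7.90 FPKM in EVI1 libraries and 5.53, 7.53 and 6.33 FPKM in control libraries. The groups overlapped, and the log2 difference was 0.15 (SE 0.12).

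**Figure D1:**
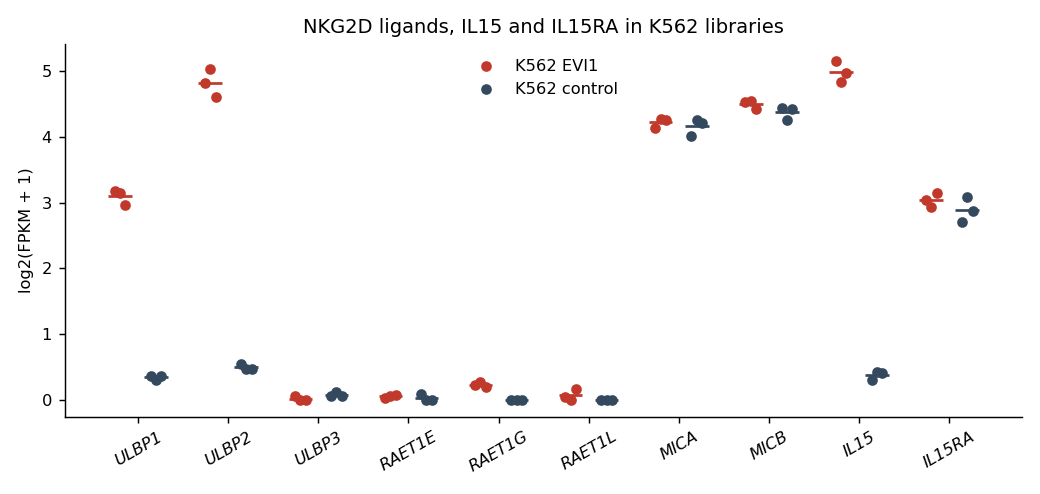
Levels of the 10 genes as log2(FPKM + 1) in K562 libraries, 1 point per library and a bar at the group mean, EVI1 left and control right. ULBP1, ULBP2 and IL15 lie at least at 6.78 FPKM in EVI1 libraries and at most at 0.457 FPKM in control libraries, while MICA, MICB and IL15RA overlap between groups.

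In FPKM the order of mean levels in EVI1 libraries was IL15, ULBP2, MICB, MICA, ULBP1 and IL15RA, from 31.0 ± 3.54 to 7.26 ± 0.622 FPKM (SD, n = 3 each). IL15 and ULBP2 overlapped, as did ULBP1 and IL15RA, whereas the other neighbours in that order did not. In control libraries the order was MICB at 19.8 ± 1.45 FPKM, MICA at 16.9 ± 1.61 FPKM, IL15RA at 6.46 ± 1.01 FPKM (SD, n = 3 each), then ULBP2, IL15 and ULBP1. There MICB overlapped MICA, and IL15 overlapped ULBP1.

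In the fit over all genes, the log2 difference of EVI1 minus control was 4.62 (SE 0.11) for IL15, 4.33 (SE 0.12) for ULBP2 and 2.76 (SE 0.10) for ULBP1, ranks 8, 11 and 70 of 13800 genes tested. Adding 1 FPKM before the log understates changes of low genes, and with 0.1 FPKM added the differences were 6.29, 5.75 and 4.40. Of the 10 members, 6 passed the filter, and ULBP1, ULBP2 and IL15 passed through EVI1 libraries alone. As background, 51.9% of all genes tested in K562 were past an adjusted p of 0.05 (7163 genes, 3898 higher and 3265 lower), and in 60.6% the groups did not overlap. The calls were 4110 higher and 2178 lower with libraries scaled to an equal FPKM sum, and 3406 higher and 4038 lower with quantile normalization. Since this comparison chose the members, no count of theirs is set against these shares.

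ULBP1 values in the libraries labelled MOLM14 were not those on which the set was selected, though earlier results of these data were known then. Under this label ULBP1 fell with EVI1. It had 0.343, 0.256 and 0.333 FPKM in EVI1 libraries and 6.47, 5.86 and 5.52 FPKM in control libraries. The groups did not overlap, and the means were 0.311 ± 0.0474 FPKM in EVI1 and 5.95 ± 0.484 FPKM in control libraries (SD, n = 3 each), 19.2-fold higher in control. The log2 change was -2.41 (SE 0.11), with an adjusted p of 5.7e-06 by limma over all rows of the label, lower in 3 of 3 EVI1 libraries. ULBP1 passed the filter under this label through control libraries alone, so the filter set the direction of this call. With no filter the call was kept (limma adjusted p = 2.6e-04). In this comparison 54.2% of 13315 rows were called, and among the 3768 tested rows with usable names ULBP1 had the 5th lowest change. Cuffnorm scaled each label apart, so levels are not compared between labels. The monocyte gene LYZ moved in the same direction, at 36.0, 35.3 and 35.3 FPKM in EVI1 and 82.3, 80.3 and 80.1 FPKM in control libraries, with FCN1 at 0 in all of them, and the part of such cells in the ULBP1 result was not tested.

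The effect of EVI1 on ULBP1 thus had opposite signs under the 2 labels, with a labelled MOLM14 effect 5.17 log2 units below the K562 effect (difference -5.17, SE 0.14). That difference has no independent test, because the K562 values chose the gene. Of all genes tested under both labels, 64.9% of 3697 differed in their EVI1 effect by the interaction test. Among these, 1222 were called under both labels, 396 of them up in K562 and down in labelled MOLM14 and 503 the reverse, with 177 up and 146 down in both. With changes of at least 2 log2 units each, 5 genes were up in K562 and down in labelled MOLM14: ULBP1, ASNS, HERPUD1, ADGRD1 and NFATC4. These were named after their values were seen. ASNS makes asparagine and is a known target of the stress factor ATF4, and it had 219.6, 310.0 and 179.6 FPKM in K562 EVI1 against 49.5, 53.4 and 69.3 FPKM in K562 control libraries. Under the MOLM14 label ASNS had 62.7, 60.4 and 58.5 FPKM in EVI1 against 374, 368 and 338 FPKM in control libraries. HERPUD1, a protein of the endoplasmic reticulum stress response, averaged 75.8 ± 21.0 FPKM in K562 EVI1 and 12.7 ± 2.09 FPKM in K562 control libraries (SD, n = 3 each). Under the MOLM14 label HERPUD1 averaged 15.8 ± 2.74 FPKM in EVI1 and 70.0 ± 1.86 FPKM in control libraries (SD, n = 3 each). ADGRD1 changed by 2.83 log2 units in K562 and by -2.35 under the MOLM14 label, and NFATC4 by 2.16 and -2.03. A part of stress factors in the ULBP1 result was not tested.

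**Figure D2:**
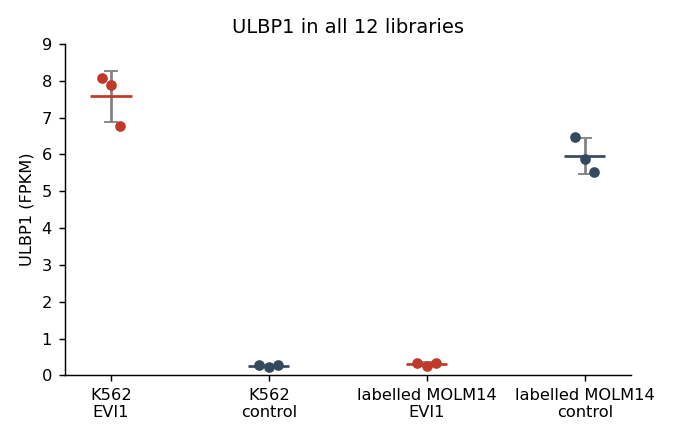
ULBP1 in FPKM in all 12 libraries, 1 point per library, with the group mean and SD as bars. Within K562 ULBP1 is high in EVI1 libraries (6.78 to 8.08 FPKM), and within the MOLM14 label in control libraries (5.52 to 6.47 FPKM). The other group of each label has at most 0.343 FPKM.

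**Figure D3:**
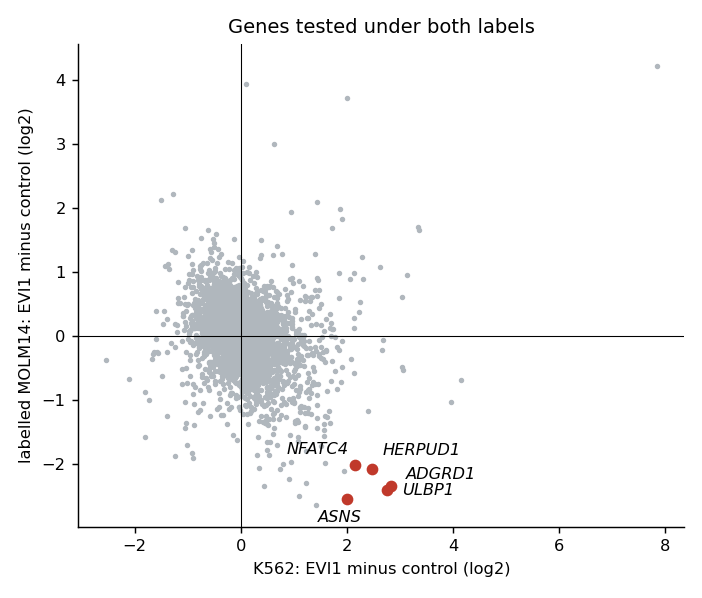
Log2 difference of EVI1 minus control in K562 (horizontal) and in the libraries labelled MOLM14 (vertical) for the 3697 genes tested under both, 1 point per gene. ULBP1 lies at 2.76 and -2.41, beside ADGRD1, HERPUD1, NFATC4 and ASNS, the genes past 2 log2 units in these opposite directions.

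Among regulators known to act on NKG2D ligands, 24 of 26 were tested in K562, of which 5 rose, 9 fell and 10 were not called. Beside this, 51.9% of all genes tested in K562 were called in either direction. The median log2 difference was -0.14 beside 0.0053 over all genes. The largest changes were in ATF3 and ATF4, factors of the integrated stress response, of which ATF4 is known to drive ULBP1. ATF3 had a log2 difference of 2.48 (38.4 ± 8.05 FPKM in EVI1 and 6.10 ± 1.68 FPKM in control libraries, SD, n = 3 each; limma adjusted p = 2.1e-05). ATF4 rose by 1.21, to 360.4 ± 33.3 FPKM in EVI1 libraries against 155 ± 6.29 FPKM in control libraries (SD, n = 3 each; limma adjusted p = 1.2e-05). MYC, a growth factor-responsive regulator, rose by 0.89, and E2F3, a cell cycle factor, fell by 0.73. Names were usable for 8 genes of the list under the MOLM14 label, where 2 rose and 1 fell. Of all tested rows with usable names under this label, 57.3% were called in either direction. There XBP1, a factor of the unfolded protein response, fell by 0.77 (limma adjusted p = 3.2e-05), while NFYA, which binds CCAAT boxes, rose by 0.56 and E2F1 by 0.33. XBP1 rose by 0.65 in K562, and its difference between labels was -1.42 (limma adjusted p = 5.9e-09). Whether any of these regulators took part in the values of the members was not tested.

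Genes that act on ligands at the surface moved in part. Of the GPI anchor pathway, which ULBP1 and ULBP2 need to stay on the membrane, 25 of 27 genes were tested in K562. There 9 rose, 7 fell and 9 were not called, with a median of 0.07. The share called among all genes tested in K562, in either direction, was 51.9%, for this list and for that of shedding below. DPM1 fell by 0.93, PIGT by 0.57 and PIGU by 0.56, and PIGN rose by 0.63. Under the MOLM14 label 2 of 10 rose and 4 fell, beside 57.3% of all tested rows with usable names called in either direction. PIGV fell by 1.00, PIGZ by 0.75, PIGL by 0.35 and PIGB by 0.22, while PIGQ rose by 0.51 and DPM1 by 0.30. The calls of DPM1 and PIGB were lost when 1 library was left out, with adjusted p up to 0.074 and 0.13 by limma. Of 8 genes of ligand shedding, 6 were tested in K562, of which 3 rose and 3 were not called (median 0.19). MMP14, a membrane metalloprotease, rose by 1.84, to 13.5 ± 0.747 FPKM in EVI1 libraries against 3.09 ± 0.739 FPKM in control libraries (SD, n = 3 each; limma adjusted p = 1.8e-05). MMP2, a secreted metalloprotease, rose by 1.15 (limma adjusted p = 1.7e-04). It passed the filter through EVI1 libraries alone, so the filter set the direction of that call. ADAM10, a sheddase of MIC and ULBP proteins, rose by 0.36 (limma adjusted p = 0.0062).

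The receptor's own genes were low, and these are not cells expected to carry NKG2D. KLRK1, which encodes NKG2D, had 0.341 ± 0.117 FPKM in EVI1 and 0.156 ± 0.058 FPKM in control libraries of K562 (SD, n = 3 each). HCST, its adaptor, was below the filter too. TYROBP, an adaptor shared with other receptors, fell by 1.24 in K562 (limma adjusted p = 2.7e-04) and by 1.88 under the MOLM14 label (limma adjusted p = 1.6e-04).

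Ligands of other NK receptors were mixed in K562. Of 14 activating ligands, 12 were tested, with 5 up, 3 down and 4 not called and a median of -0.05. For these and the inhibitory ligands below, the background in K562 is 51.9% of all genes called in either direction. SLAMF7, a self-ligand of NK cells, rose by 1.65 after passing the filter through EVI1 libraries alone, which set its direction. ICAM3 and CD58, which bind the adhesion receptors LFA-1 and CD2, fell by 1.00 and 0.91, and CLEC2B, the ligand of NKp80, fell by 0.90. Under the MOLM14 label 2 of 7 rose, ICAM3 by 0.83 and ICAM2 by 0.60, and CLEC2B fell by 0.76. As background, 57.3% of all tested rows with usable names were called under that label. Of 12 inhibitory ligands, 6 were tested in K562, and HLA-C, HLA-B and HLA-E rose while 3 were not called (median 0.63). HLA-E, the ligand of the inhibitory receptor NKG2A, had 61.5 ± 3.33 FPKM in EVI1 and 28.8 ± 2.31 FPKM in control libraries (SD, n = 3 each; limma adjusted p = 2.1e-05). HLA-C rose by 1.55, to 3.63 ± 0.472 FPKM in EVI1 against 0.579 ± 0.0949 FPKM in control libraries (SD, n = 3 each). HLA-B rose by 1.48, to 2.63 ± 1.46 FPKM in EVI1 against 0.240 ± 0.135 FPKM in control libraries (SD, n = 3 each), and class I genes share sequence among themselves. Both HLA-B and HLA-C passed the filter through EVI1 libraries alone, so the filter set the direction of their calls. CLEC2D, the ligand of the inhibitory receptor KLRB1, fell by 1.17 under the MOLM14 label (limma adjusted p = 1.1e-04).

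Around IL15, the receptor and signal genes included 8 tested of 11 in K562, with 4 up, 1 down and 3 not called and a median of 0.29. For these and the regulators of IL15 below, the background in K562 is 51.9% of all genes called in either direction. IL2RG, the common gamma chain that IL15 uses, rose by 1.25, to 31.5 ± 0.383 FPKM in EVI1 against 12.6 ± 0.633 FPKM in control libraries (SD, n = 3 each; limma adjusted p = 5.2e-06). STAT5B, JAK1 and STAT3, which carry the signal of such receptors, rose by 0.46, 0.43 and 0.29. SYK, a tyrosine kinase, fell by 1.69 (limma adjusted p = 7.4e-06). Of 12 regulators of IL15, 11 were tested, with 2 up, 3 down and 6 not called (median 0.14). IRF7, an interferon regulatory factor, rose by 0.70, while IFNGR2, NFKB1 and IFNGR1 fell by 0.86, 0.44 and 0.31. The call of IFNGR1 was lost when 1 library was left out (limma adjusted p up to 0.087) and with libraries scaled to an equal FPKM sum (limma adjusted p = 0.19). Under the MOLM14 label IFNGR1 fell by 0.60, of 3 tested.

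Of 16 other cytokines active on NK cells or using the common gamma chain, 3 reached the filter in K562 and all 3 rose (median 1.36), IL7 after passing the filter through EVI1 libraries alone. IL18, which acts on NK cells together with IL15, had 23.9 ± 3.14 FPKM in EVI1 and 4.19 ± 0.537 FPKM in control libraries (SD, n = 3 each), a rise of 2.26 log2 units (limma adjusted p = 3.0e-06). IL7, a lymphocyte growth factor, rose by 1.36, to 1.70 ± 0.251 FPKM in EVI1 against 0.0462 ± 0.0283 FPKM in control libraries (SD, n = 3 each). IL23A, a subunit of IL-23, rose by 1.08 in K562 and fell by 1.59 under the MOLM14 label, a difference of -2.67 between labels (limma adjusted p = 1.5e-07). Like IL7, the genes MMP2, SLAMF7, HLA-B and HLA-C passed through EVI1 libraries alone, as no control library reached 1 FPKM, so the direction of these 5 calls was set by the filter. Across all 9 lists, these 5 included, 57 of 95 tested genes were called in K562, beside the 51.9% called among all genes. Under the MOLM14 label 17 of 31 were called, beside 57.3% of all tested rows with usable names.

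**Figure D4:**
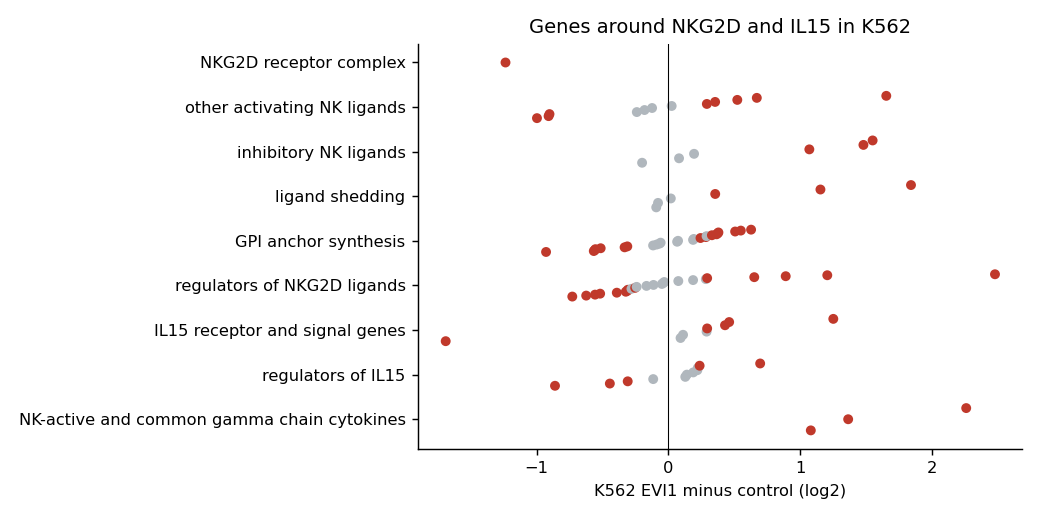
Log2 difference of K562 EVI1 minus control for the tested genes of 9 lists around NKG2D and IL15, 1 point per gene, red where the limma adjusted p was under 0.05 and grey otherwise. ATF3 at 2.48 and IL18 at 2.26 lie farthest to the right, and SYK at -1.69 farthest to the left.

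Tested protein-coding genes outside the ULBP and RAET1 cluster, on either side of it, were lower with EVI1 or not called in K562. Inside the cluster, the pseudogene RAET1K averaged 0.749 FPKM in EVI1 and 0.137 FPKM in control libraries. The pseudogene AL583835.2 averaged 0.181 FPKM in EVI1 libraries and was listed at 0 in control libraries. RAET1E-AS1 went the other way, at 0.574 and 1.13 FPKM. These rows lay below the filter and were not tested. Of 10 protein-coding neighbours of the ULBP and RAET1 cluster, 7 were tested in K562 with limma, all with a difference below 0, and 5 fell, beside 51.9% of all genes called in either direction: LATS1 by 0.45, NUP43 by 0.75, PCMT1 by 0.36, LRP11 by 1.24 and PPP1R14C by 1.46. KATNA1 at -0.21 and MTHFD1L at -0.11 were not called. LRP11, the nearest tested gene on one side, ends 19.3 kb from the cluster and had 0.783 FPKM in EVI1 and 3.21 FPKM in control libraries on average. Beside IL15, INPP4B, a phosphoinositide phosphatase, rose by 0.90 and ZNF330 by 0.21, GAB1 fell by 0.43, and ELMOD2, USP38 and SMARCA5 were not called.

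Beside MICA and MICB, whose groups overlapped, HLA-C, HLA-B, ATP6V1G2 and NFKBIL1 rose by 1.55, 1.48, 1.05 and 0.69, and TCF19 fell by 0.26. CCHCR1, DDX39B and ATP6V1G2-DDX39B were not called, and the last of these reads through 2 genes. Beside IL15RA, 7 of 9 tested neighbours fell, by 0.28 to 0.55, namely FAM208B, GDI2, ANKRD16, FBXO18, RBM17, PFKFB3 and SFMBT2, while ASB13 and PRKCQ were not called. Of all 30 tested neighbours 20 were called, beside 51.9% of all genes. That count was 11 without K562 EVI1 replicate 3 and 12 without K562 EVI1 replicate 1, when 26 neighbours passed the filter, and at least 15 with the 30 genes kept whichever library was left out. HLA-B, HLA-C, ATP6V1G2 and INPP4B passed the filter through EVI1 libraries alone and LRP11 through control libraries alone, so the filter set the direction of these calls. The calls of ZNF330, SFMBT2, TCF19, GAB1 and FBXO18 were lost when 1 library was left out, with limma adjusted p up to 0.11, 0.11, 0.14, 0.070 and 0.064. With the replicate block ZNF330 and SFMBT2 were not called (limma adjusted p = 0.061 and 0.052), and with libraries scaled to an equal FPKM sum TCF19, GAB1, GDI2, FBXO18 and SFMBT2 were not.

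**Figure D5:**
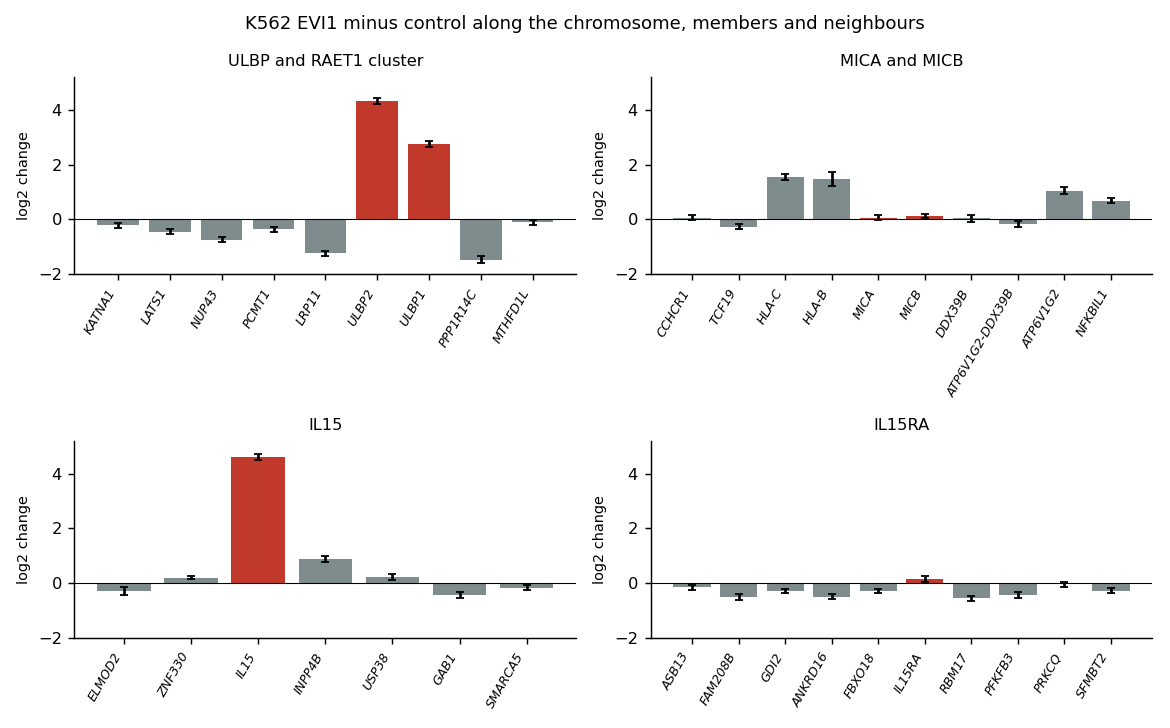
Log2 difference of K562 EVI1 minus control (bars, with SE) for tested genes in chromosome order at the 4 loci, members in red and neighbours in grey. ULBP2 at 4.33 and ULBP1 at 2.76 stand between LRP11 at -1.24 and PPP1R14C at -1.46, and IL15 at 4.62 beside INPP4B at 0.90.

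The genes whose pattern over the 6 K562 libraries was nearest to each member were found by the distance between mean-centred log2(FPKM + 1) values. For ULBP1 they were TCN1, a cobalamin carrier, PPP3CA, a calcineurin subunit, and SSX3, a cancer-testis gene, at distances of 0.12, 0.18 and 0.20 log2 units. For ULBP2 they included TMEM108 and TFPI, an inhibitor of coagulation, at 0.33 and 0.42. For IL15 they were DTNA, PAEP and the long noncoding RNA BANCR, at 0.33, 0.50 and 0.55. The nearest to MICA were NR2F2-AS1, HMG20B and FIBP, those to MICB DSCC1, STRBP and SCIN, and those to IL15RA ZDHHC13, EGFL7 and ANKH, all at distances between 0.069 and 0.16. Of the genes named here, 4 have usable names under the MOLM14 label, and they shared no direction there. TFPI fell by 0.70 (limma adjusted p = 0.0015), with 46.6, 46.2 and 41.9 FPKM in EVI1 and 83.3, 77.9 and 61.1 FPKM in control libraries. SCIN, an actin-severing protein, rose by 3.93 (limma adjusted p = 7.9e-07), with 17.5, 19.8 and 19.3 FPKM in EVI1 and 0.278, 0.402 and 0.233 FPKM in control libraries. Under this label SCIN passed the filter through EVI1 libraries alone, so the filter set the direction of its call. HMG20B had a log2 difference of 0.17 and was not called (limma adjusted p = 0.21). PAEP, below the filter, had 0.641, 0.723 and 1.14 FPKM in EVI1 libraries and was listed at 0 in control libraries.

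Markers of other cell types in K562 stand beside these values. For NK cells, 2 of 15 markers reached the filter and both rose, beside 51.9% of all genes called in either direction. The 15 summed to 11.7 to 12.7 FPKM in EVI1 and 4.82 to 6.18 FPKM in control libraries, with GZMA, KLRC1 and EOMES at 0 in both groups. The 9 monocyte and dendritic cell markers, of cells that make IL15, summed to 14.2 to 16.8 FPKM in EVI1 and 22.1 to 25.1 FPKM in control libraries, with FCN1 and CD1C at 0 in both groups. Of the 2 tested, 1 rose and 1 fell. The 6 stromal and endothelial markers summed to 31.4 to 36.8 FPKM in EVI1 and 3.82 to 6.23 FPKM in control libraries, 2 of them tested and both up. The 9 T cell markers summed to 67.2 to 77.4 FPKM in EVI1 and 36.8 to 42.2 FPKM in control libraries with CD8A at 0, the 5 B cell markers to 4.24 to 4.71 FPKM and 3.30 to 4.20 FPKM with MS4A1 at 0, and the 5 epithelial markers to 280.5 to 296 FPKM and 236 to 267 FPKM with CDX2 at 0. Both T cell markers tested rose, though only 1 of the 9 averaged at least 1 FPKM in control libraries. The 1 B cell marker tested was not called, and of 3 epithelial markers tested 2 rose and 1 fell. The part of other cell types in the values of the members was not tested.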

How the data were processed

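Libraries were made from total RNA with a TruSeq RNA kit, per the labels' protocols, whose extraction step names mouse intestine while the samples are entered as human lines. The authors deposited FPKM per gene; the tools named are STAR, Cuffnorm and Cufflinks with hg38 and GRCh38, per the submitters' processing notes, and no version is given in the sources used here. Cuffnorm scales libraries against each other. FPKM summed to 765285 to 898547 per K562 library and 599102 to 630579 per library labelled MOLM14. Low values of genes with 1 transcript fell on steps of a whole fragment (94.6% to 96.3% within 0.05 log2) in K562, which gave the fragment estimates; for the MOLM14 label depth is unknown.

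Groups and replicates came from sample titles. The members and all gene lists were chosen with earlier results of these data known. From rows below the first identifier ending in PAR_Y, only K562 columns were used; 23 symbols turned into dates were restored from identifiers, and 1 row blank in 3 columns was left out of 1 fit. Values were analysed as log2(FPKM + 1) in R 4.3.3 with limma 3.58.1 (trend, two-sided), on genes of at least 1 FPKM in at least 3 libraries, with Benjamini-Hochberg adjustment over all genes of each fit and a threshold of 0.05; "rose" and "fell" mean past it. The K562 label, the MOLM14 label and the difference between labels were fitted, on 13800, 13315 and 3697 genes. The code was tested on simulated data. Tables used Python 3.11.15 and pandas 2.3.3, coordinates GENCODE 29, and promoters RefSeq, which has 9 of the 10 members and lacks IL15.

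Named genes are the members, MECOM, called genes of each list (all where at most 6, otherwise the 4 with the largest change), tested neighbours (5 protein-coding genes on each side), and the 3 nearest patterns per member without clone names; some of these are not reported here. The alternatives were another pseudocount, no filter, equal FPKM sum, quantile normalization, a replicate block and leaving out each library, with the filter run again or, chosen after seeing the data, with the genes of the full fit kept.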

Additional observations from a re-analysis of the deposited data

Results flagged for a closer look

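ULBP1 stood out because every EVI1 library moved one way in K562 and the opposite way under the MOLM14 label, relative to its own control. The labelled MOLM14 effect minus the K562 effect was -5.17 log2 units, and this difference was not tested, because the K562 values had chosen the gene.

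Around NKG2D and IL15, the EVI1 effect differed between labels by limma's interaction test in 22 of the 31 genes of the lists tested for it, beside 64.9% of all 3697 genes tested, and 18 of the 22 are named here by the labelled MOLM14 effect minus the K562 effect in log2 units. Those below 0 were IL23A at -2.67, XBP1 at -1.42, PIGV at -1.38, CLEC2D at -1.37, TYROBP at -0.63 and PVR at -0.37. Those above 0 were ICAM3 at 1.83, DPM1 at 1.23, CD58 at 1.11, E2F1 at 0.95, NFYA at 0.87, E2F3 at 0.87, HDAC1 at 0.77, PIGT at 0.52, PIGU at 0.50, KMT2E at 0.36, NFKB1 at 0.36 and E2F2 at 0.31. The call was lost when at least 1 library was left out for TYROBP and E2F2. For TYROBP it was also lost with a pseudocount of 0.1, at -0.16 log2 units (limma adjusted p = 0.69), with quantile normalization, at -0.26 (limma adjusted p = 0.37), and with no filter (limma adjusted p = 0.069), over a range of adjusted p from 0.0047 to 0.69. With libraries scaled to an equal FPKM sum it was lost for E2F2, KMT2E and NFKB1.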

How the results depend on the processing

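ULBP1 under the MOLM14 label kept its direction and its call in every alternative that included it. Its log2 change lay between -3.88 (pseudocount 0.1) and -2.33, with an adjusted p between 5.5e-06 and 2.7e-04 by limma. In all of these but the fit with no filter, the filter set the direction, so they do not test it. With no filter the adjusted p was 2.6e-04 by limma. Without 1 library the log2 change lay between -2.45 and -2.35. Leaving out a control library of this label took ULBP1 below the filter, so those values come from fits that kept the genes of the full fit, an alternative chosen after seeing the data. The log2 differences of ULBP1, ULBP2 and IL15 in K562 moved past their spread with pseudocount 0.1 alone. The ULBP1 difference between labels was -8.28 with that pseudocount and -4.96 with quantile normalization. The alternatives were counted for 99 tested gene results: MECOM, called list genes, tested neighbours, and ULBP1 under the MOLM14 label. None of these changed sign where it was called. Of 89 called ones 74 kept the call in every alternative that tested them, while 15 lost it in at least 1, 12 of them without 1 library. ASNS, HERPUD1, ADGRD1, NFATC4 and the nearest patterns were not run as such. MICA in K562, not called, went from 0.061 to -0.0046 with quantile normalization and to -0.014 without K562 control replicate 1.

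Counts of calls were 6288 to 7817 in K562 (5591 to 6977 without 1 library, both ways of leaving one out together), 6905 to 7232 under the MOLM14 label (5975 to 6590) and 2382 to 2796 for the difference (2262 to 2405). In the lists they were 51 to 62 in K562 (45 to 57), 16 to 19 under the MOLM14 label (15 to 18) and 19 to 29 for the difference (17 to 23), and among neighbours 15 to 21 (11 to 20).

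The replicate numbers did not pair the samples: deviations of libraries with the same number correlated at -0.21, -0.05 and 0.13 in K562 and at -0.01, -0.03 and -0.05 under the MOLM14 label. With the replicate block 7044, 7098 and 2449 genes were called in K562, under the MOLM14 label and for the difference, and 18 neighbours. Control levels of ULBP1 and ULBP2 in K562 rest on few fragments, so their ratios are less certain than the EVI1 levels; a small difference of ULBP3, RAET1E, RAET1G or RAET1L was not detectable.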
